A study of Mus musculus with 7 samples.

Results

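Endothelial cells line the blood vessels that feed a tumor, and 10 genes that mark them, Pecam1, Cdh5, Kdr, Flt1, Tek, Tie1, Eng, Vwf, Esam and Emcn, were followed in the RNA-seq counts of 7 s/c tumors. The 10 genes were listed by name, without a threshold on any value but with earlier results of these data known. They were found by matching Ensembl identifiers to mouse gene symbols. All 10 were among the 22629 rows of the table, and all 10 were among the 17489 genes with enough counts for a test. The tumors grew from 1242 KPC cells, a cell line from a mouse pancreatic ductal adenocarcinoma (PDA), in C57BL/6 hosts, and were harvested 2 weeks after inoculation. The first group comprised 3 tumors formed with sgScramble control PDA cells, which carry Cas9 and a guide without a target, and these are called sgScramble tumors 1, 4 and 5. The second group comprised 4 tumors formed with sgScramble PDA cells that also express intracytoplasmic ovalbumin (icOVA) under doxycycline, and these are called icOVA tumors 15, 16, 18 and 2. The icOVA cells were transduced, sorted and cloned from single cells and their hosts received doxycycline in food, so that icOVA, the clone, doxycycline and the number of cells inoculated cannot be told apart between the groups. The sources used here do not state which sgScramble line formed the control tumors, whether their hosts received doxycycline, or whether each tumor came from its own mouse, so p values measure the spread between these tumors.

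Endothelial cells hold to each other through VE-cadherin, which Cdh5 encodes, together with CD31 and ESAM from Pecam1 and Esam. They receive the growth signal VEGF through the receptors VEGFR2 and VEGFR1, from Kdr and Flt1, and the angiopoietin signal through TIE2, from Tek, beside its relative TIE1, from Tie1. Eng encodes endoglin, a coreceptor for ligands of the BMP family, Emcn encodes the mucin endomucin of capillaries and veins, and Vwf encodes von Willebrand factor, which captures platelets. Several of these genes are also read in other cells, Pecam1 in platelets and leukocytes, Vwf in megakaryocytes, Flt1 and Eng in some macrophages and stromal cells, whereas Cdh5 is the strictest marker of the group.

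The coordinates that follow are those of GRCm38 in the GENCODE M21 annotation. Pecam1 lies on chromosome 11 from 106654217 to 106750628 on the minus strand, and Cdh5 lies on chromosome 8 from 104101625 to 104144511 on the plus strand. Kdr lies on chromosome 5 from 75932827 to 75978458 and Flt1 on the same chromosome from 147561604 to 147726011, both on the minus strand. Tek lies on the plus strand of chromosome 4 from 94739289 to 94874976, and Tie1 lies on its minus strand from 118471191 to 118490061. Eng lies on chromosome 2 from 32646595 to 32682669, Vwf on chromosome 6 from 125546774 to 125686679, Esam on chromosome 9 from 37528078 to 37538319 and Emcn on chromosome 3 from 137341067 to 137432185, all on the plus strand. Of the 10 genes, only Eng has exons that overlap those of another annotated gene, Fpgs, over 61 bases on the opposite strand.

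The VEGF and TIE receptor genes are shown by their promoters because they form 2 pairs, Kdr with Flt1 and Tek with Tie1, and Kdr and Flt1 differed in their pattern across the tumors. RefSeq promoters on GRCm38.p6, from 250 bases before to 50 bases after the RefSeq start of the gene, matched 6 of the 10 genes. By the GENCODE coordinates, most of the Tie1 window lies inside the gene, whose 5′ end is at 118490061. Each is printed from 5′ to 3′ along the strand of its gene, and capitals mark GGAA, the core bound by ETS transcription factors such as ERG, or TTCC, the same core on the other strand.
Kdr, chr5:75978406-75978705, minus strand: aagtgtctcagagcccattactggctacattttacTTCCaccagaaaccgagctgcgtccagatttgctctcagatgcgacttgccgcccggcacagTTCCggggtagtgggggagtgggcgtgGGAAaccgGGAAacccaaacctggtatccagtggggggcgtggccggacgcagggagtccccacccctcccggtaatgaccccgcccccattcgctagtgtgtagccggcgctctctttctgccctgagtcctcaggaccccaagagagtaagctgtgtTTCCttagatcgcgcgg
Flt1, chr5:147725962-147726261, minus strand: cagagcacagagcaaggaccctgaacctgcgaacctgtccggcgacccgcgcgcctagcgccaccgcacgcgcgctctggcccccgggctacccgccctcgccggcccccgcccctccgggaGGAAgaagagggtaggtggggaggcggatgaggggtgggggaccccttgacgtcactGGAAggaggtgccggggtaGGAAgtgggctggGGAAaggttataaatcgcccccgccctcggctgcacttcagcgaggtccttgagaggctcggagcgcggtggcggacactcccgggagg
Tek, chr4:94739039-94739338, plus strand: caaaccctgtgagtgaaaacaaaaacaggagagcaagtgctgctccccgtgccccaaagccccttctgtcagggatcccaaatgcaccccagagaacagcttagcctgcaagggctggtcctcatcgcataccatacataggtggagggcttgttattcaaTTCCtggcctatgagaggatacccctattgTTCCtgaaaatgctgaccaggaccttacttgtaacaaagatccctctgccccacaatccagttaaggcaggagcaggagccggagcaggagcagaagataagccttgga
Tie1, chr4:118489800-118490099, minus strand: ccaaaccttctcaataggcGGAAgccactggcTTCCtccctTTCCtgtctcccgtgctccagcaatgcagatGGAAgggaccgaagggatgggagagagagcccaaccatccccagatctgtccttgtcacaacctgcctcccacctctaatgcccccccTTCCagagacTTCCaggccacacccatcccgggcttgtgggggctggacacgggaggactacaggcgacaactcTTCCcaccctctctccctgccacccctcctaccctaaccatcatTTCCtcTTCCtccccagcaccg

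The promoter of Tie1 held 9 matches to GGAA on either strand, that of Kdr 5, that of Flt1 4 and that of Tek 2. The promoters of Emcn and Eng held 6 and 4. A GGAA match was found in 96% of 32851 mouse promoters of this length, with a median of 3 matches, so its presence does not set these genes apart. The longer AGGAAG, which contains GGAA, had 2 matches each in Flt1, Tie1, Eng and Emcn and no match in Kdr and Tek, against 35.4% of all promoters with at least 1. The GATA-type motif AGATAA was found in Tek alone among the 6 promoters, once, and in 11.2% of all promoters. These matches describe the letters of the windows, and no binding was measured.

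The table held between 30904855 and 37510591 counts a tumor. OVA, which checks the labels, had 85 to 151 counts in the sgScramble tumors and 3413 to 10750 in the icOVA tumors. Each endothelial gene was read in each tumor, the lowest value being 110 counts for Tek in sgScramble tumor 1. Levels of single genes are given as CPM, the read count relative to the library total after TMM scaling, and fold changes as log2 of icOVA over sgScramble with the standard error (SE) of edgeR's quasi-likelihood test. Per kilobase of the longest coding transcript, the highest mean level in sgScramble tumors was that of Pecam1, at 22.3 RPKM (CPM per kilobase), followed by Eng at 15.4, Cdh5 at 15.1 and Esam at 13.6 RPKM. The VEGF receptors stood lower, Flt1 at 8.45 and Kdr at 4.51 RPKM, beside Emcn at 6.40, Tie1 at 4.85 and Vwf at 4.42 RPKM, and Tek was lowest at 0.960 RPKM. In icOVA tumors the order began with Pecam1 at 39.7, Cdh5 at 27.7, Eng at 27.1 and Esam at 22.9 RPKM and again ended with Tek at 2.25 RPKM. Kdr, at 8.13 RPKM, stood close to Flt1, at 9.99 RPKM. Neighbors in these orders overlapped tumor by tumor, except that the tumors did not overlap between Esam and Flt1 or between Vwf and Tek in the sgScramble group, or between Esam and Emcn in the icOVA group.

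The 10 genes all had a higher mean in icOVA tumors than in sgScramble tumors, with log2 fold changes from 0.20 for Vwf to 1.23 for Tek and a median of 0.82, but none passed the adjusted threshold of 0.05. Over all 17489 tested genes the median log2 fold change was -0.0048 and 49.4% of the values were above 0. The genes fell into 8 with log2 fold changes of 0.72 or more, Pecam1, Cdh5, Esam, Kdr, Tek, Tie1, Eng and Emcn, and 2 with smaller ones, Flt1 and Vwf. In tissue RNA, fewer cells of a type and less RNA per cell cannot be told apart, so that these values do not separate the number of endothelial cells from the RNA of each.

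Among the junction and adhesion genes, Cdh5 was at 54.9, 79.1 and 46.9 CPM in sgScramble tumors 1, 4 and 5. It was at 130, 56.5, 157 and 98.6 CPM in icOVA tumors 15, 16, 18 and 2, and values of the genes that follow are given in this order of tumors. The icOVA tumors 18, 15 and 2 thus stood above each sgScramble tumor, while icOVA tumor 16 stood below sgScramble tumor 4. The log2 fold change of Cdh5 was 0.87 (SE 0.34, edgeR Benjamini-Hochberg adjusted p = 0.149). Pecam1 had 73.3, 92.1 and 64.6 CPM in the sgScramble tumors and 154, 82.9, 187 and 122 CPM in the icOVA tumors, in the same order of tumors as Cdh5 from highest to lowest. Its mean was 137 ± 44.7 CPM (SD, n = 4) against 76.7 ± 14.0 CPM (SD, n = 3), which put its log2 fold change at 0.83 (SE 0.27, edgeR adjusted p = 0.0985). Esam, whose product sits at tight junctions, had 22.1, 30.4 and 23.3 CPM in the sgScramble tumors and 44.2, 26.4, 58.4 and 42.2 CPM in the icOVA tumors. Here too only icOVA tumor 16 fell within the range of the sgScramble tumors. The log2 fold change of Esam was 0.76 (SE 0.25, edgeR adjusted p = 0.108).

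**Figure D1:**
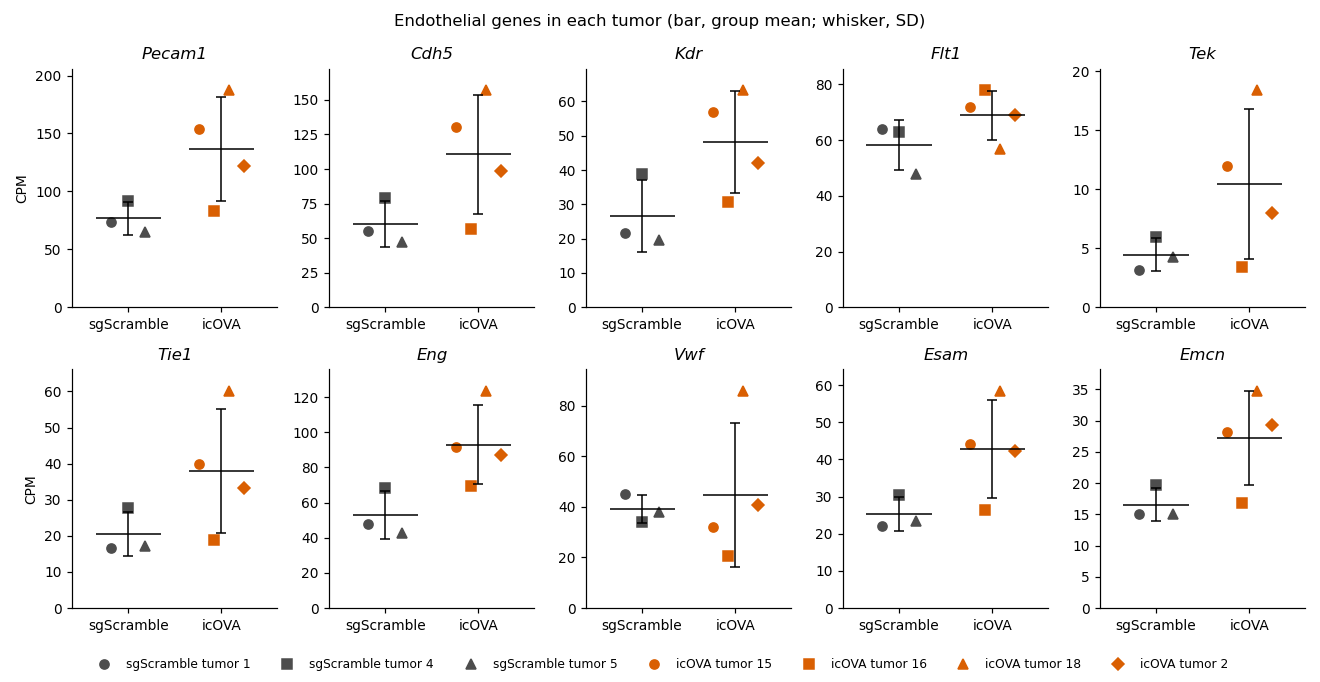
CPM (vertical axes, from 0) of the 10 endothelial genes in 3 sgScramble tumors (grey) and 4 icOVA tumors (orange), with each tumor as 1 symbol, the group mean as a bar and the SD as whiskers. In 8 panels icOVA tumors 15, 18 and 2 lie above the sgScramble tumors with icOVA tumor 16 near them, whereas for Flt1 the icOVA tumor within the sgScramble range is tumor 18 and for Vwf tumor 18 alone lies above the sgScramble tumors.

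The 2 VEGF receptor genes had different orders of tumors. Kdr, the main signaling receptor, had 21.6, 38.7 and 19.7 CPM in the sgScramble tumors and 56.9, 30.5, 63.3 and 42.0 CPM in the icOVA tumors. As with Cdh5, icOVA tumor 16 alone lay below sgScramble tumor 4. The log2 fold change of Kdr was 0.85 (SE 0.31, edgeR adjusted p = 0.135). Flt1, whose product binds VEGF tightly and also occurs as a soluble decoy, had 63.9, 62.9 and 47.8 CPM in the sgScramble tumors and 71.9, 77.9, 56.9 and 68.9 CPM in the icOVA tumors. For Flt1, icOVA tumor 16 was the highest of the 7 tumors and icOVA tumor 18 was below sgScramble tumors 1 and 4. Its mean was 68.9 ± 8.83 CPM (SD, n = 4) against 58.2 ± 9.03 CPM (SD, n = 3), which put its log2 fold change at 0.24 (SE 0.14, edgeR adjusted p = 0.294). Its level differed between the highest and the lowest icOVA tumor by 1.37 times, against 2.07 times for Kdr.

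The TIE receptor genes had the same order of the 4 highest tumors as Cdh5. Tek had 3.17, 5.95 and 4.29 CPM in the sgScramble tumors and 12.0, 3.44, 18.4 and 7.96 CPM in the icOVA tumors. The value of icOVA tumor 16 was lower than those of sgScramble tumors 4 and 5, and the icOVA tumors spanned 5.35 times. The log2 fold change of Tek was 1.23 (SE 0.52, edgeR adjusted p = 0.179). Tie1 had 16.8, 27.6 and 17.3 CPM in the sgScramble tumors and 40.0, 18.8, 60.1 and 33.2 CPM in the icOVA tumors. The icOVA tumor 16 was between sgScramble tumors 5 and 4. The log2 fold change of Tie1 was 0.89 (SE 0.37, edgeR adjusted p = 0.175).

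Eng was the only gene of the 10 with each icOVA tumor above each sgScramble tumor, which held for 11.3% of all tested genes. It had 47.8, 68.2 and 42.4 CPM in the sgScramble tumors and 91.4, 69.6, 123 and 86.8 CPM in the icOVA tumors, so that the gap rested on icOVA tumor 16 exceeding sgScramble tumor 4 by little. Its mean was 92.8 ± 22.4 CPM (SD, n = 4) against 52.8 ± 13.6 CPM (SD, n = 3). The adjusted p of Eng was the lowest of the 10 genes, 0.0723 by edgeR, for a log2 fold change of 0.81 with an SE of 0.22. Emcn had 14.998, 19.6 and 15.03 CPM in the sgScramble tumors and 28.2, 16.8, 34.7 and 29.3 CPM in the icOVA tumors. The icOVA tumors 18, 2 and 15 stood above each sgScramble tumor and icOVA tumor 16 did not, and the log2 fold change was 0.72 (SE 0.24, edgeR adjusted p = 0.106).

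Vwf had 45.0, 34.1 and 38.1 CPM in the sgScramble tumors and 32.0, 20.6, 85.7 and 40.8 CPM in the icOVA tumors. The 2 lowest tumors and the highest tumor were all icOVA tumors, and the 3 sgScramble tumors lay between them. The icOVA tumors spanned 4.16 times and the sgScramble tumors 1.32 times. The log2 fold change of 0.20 (SE 0.43, edgeR adjusted p = 0.798) became -0.33 (adjusted p = 0.417, edgeR) without icOVA tumor 18, and was between 0.12 and 0.44 with any other tumor left out.

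**Figure D2:**
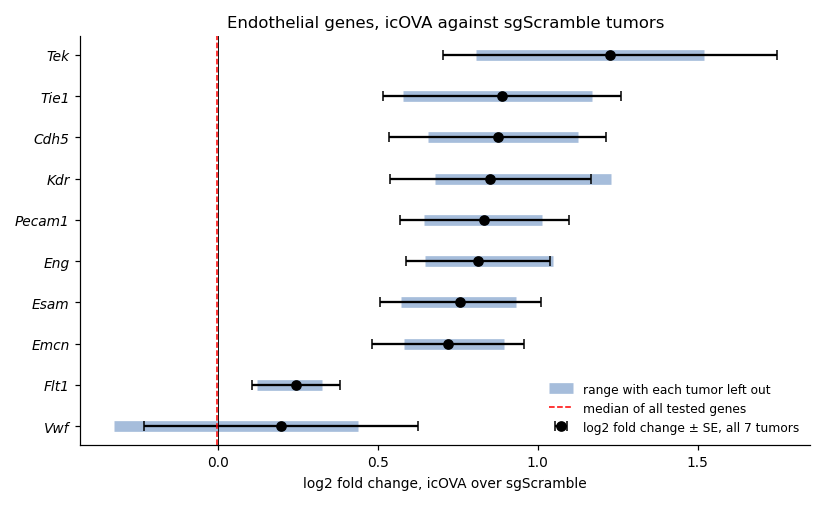
Log2 fold change of icOVA over sgScramble tumors (horizontal axis) for the 10 endothelial genes, with points for the fit of all 7 tumors, whiskers for ± 1 SE, blue bands for the range of fits with each tumor left out, and a red dashed line for the median of all tested genes. The values run from 0.20 for Vwf to 1.23 for Tek, and the band of Vwf alone crosses 0.

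By the adjusted p of edgeR, 0 of the 10 genes were called higher in icOVA tumors, against 3.36% of all tested genes, and 0 were called lower, against 2.54%. By the unadjusted p below 0.05, 8 of the 10 were higher (all but Flt1 and Vwf), against 13.4% of all tested genes. Because the 10 genes were chosen with earlier results of these data known, these shares describe them and do not test the list. Groups did not overlap, with each icOVA tumor above each sgScramble tumor, in 1 of the 10 genes, Eng, against 11.3% of all tested genes. The call depended on the tool and on single tumors: DESeq2 called 6, Pecam1, Cdh5, Kdr, Eng, Esam and Emcn (adjusted p from 0.00565 to 0.0446), where it called 8.91% of all genes higher, and limma-voom called 0. Without icOVA tumor 16, edgeR called 6, Pecam1, Cdh5, Tek, Eng, Esam and Emcn (adjusted p from 0.0234 to 0.0439), where 5.88% of all genes were called higher, and without sgScramble tumor 4 it called Eng (adjusted p = 0.0404), where 4.82% were.

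The tumors differed in their endothelial genes as a whole. Averaged over the 10 genes, log2 CPM stood at 4.76, 5.19 and 4.68 for sgScramble tumors 1, 4 and 5. For icOVA tumors 15, 16, 18 and 2 the average was 5.70, 4.88, 6.11 and 5.52. The icOVA tumor 16 was between sgScramble tumors 1 and 4 on this scale. The group means were 4.88 ± 0.27 (SD, n = 3) and 5.55 ± 0.52 (SD, n = 4) log2 CPM. The icOVA tumor 18 was the highest tumor for 9 of the 10 genes, all but Flt1. The lowest tumor was sgScramble tumor 5 for 5 genes, sgScramble tumor 1 for 4 genes and icOVA tumor 16 for Vwf.

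Across the 7 tumors, which share their libraries and the difference between groups, the log2 CPM of a gene was compared with the mean of the other 9. Pearson's r was between 0.940 and 0.993 for the 8 genes with log2 fold changes of 0.72 or more, the highest being those of Tie1 (0.993), Cdh5 (0.990) and Esam (0.990). It was 0.49 for Vwf and 0.082 for Flt1. The pattern of these coefficients is a description of 7 points and was not tested.

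**Figure D3:**
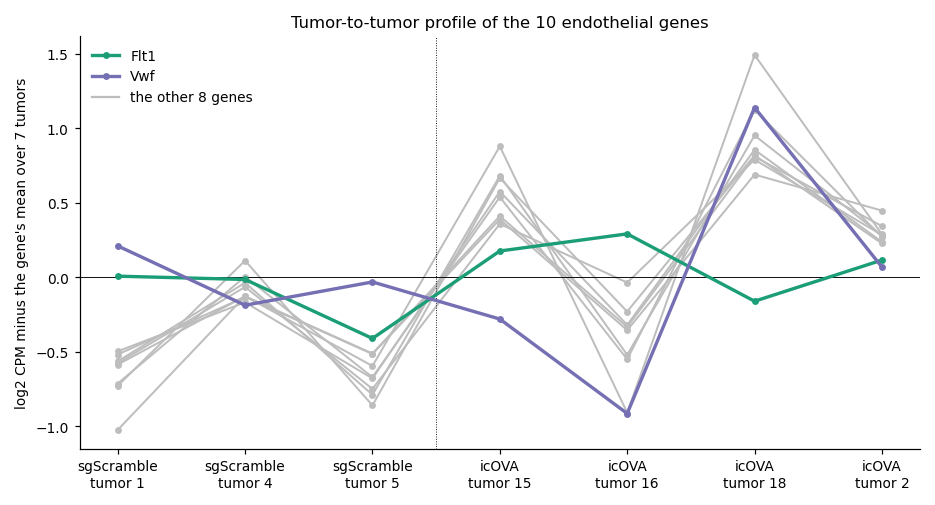
Log2 CPM of each of the 10 endothelial genes minus its mean over the 7 tumors (vertical axis), by tumor (horizontal axis), with lines that only join the values of 1 gene. The 8 grey genes share highs in icOVA tumors 15 and 18 and a low in icOVA tumor 16, Vwf (purple) follows them in icOVA tumors 16 and 18 but not in icOVA tumor 15, and Flt1 (green) has its highest value in icOVA tumor 16.

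Among 12046 genes with a mean of at least 5 CPM outside the 10, those most like the mean of the endothelial genes across the 7 tumors were Cbfa2t3 (r = 0.998), Erg (0.995), Robo4 (0.995), Dysf (0.994), Rgs5 (0.993) and Vwa1 (0.993). Erg encodes an ETS factor of endothelial cells, Robo4 a receptor of vessels, and Rgs5 is a marker of pericytes. Erg had 6.48, 8.60 and 5.85 CPM in the sgScramble tumors and 13.8, 7.59, 18.2 and 12.0 CPM in the icOVA tumors, and icOVA tumor 16 was again the icOVA tumor within the sgScramble range. The log2 fold changes of the 6 genes ran from 0.80 for Vwa1 to 1.17 for Rgs5, and none passed the adjusted threshold (lowest adjusted p = 0.104, for Erg, edgeR).

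Ratios of genes within a tumor were set to ask whether genes also made by other cells moved apart from Cdh5, and whether paired receptors or ligands shifted. The smallest p of an exact two-sided permutation test with 3 against 4 tumors is 0.0571. None of the 6 ratios could therefore pass the threshold of 0.05 between the groups, and their differences are given as a description. The log2 ratio of Pecam1 to Cdh5 in icOVA tumors was 0.34 ± 0.14 (SD, n = 4), against 0.37 ± 0.13 (SD, n = 3) in sgScramble tumors, and that of Eng to Cdh5 was -0.18 ± 0.35 and -0.19 ± 0.04. The ratio of Vwf to Cdh5 was lower in icOVA tumors by the most, at -2.02, -1.45, -0.87 and -1.27 on the log2 scale (tumors 15, 16, 18 and 2) against -0.29, -1.21 and -0.30 in the sgScramble tumors. All but icOVA tumor 18 were below the 3 sgScramble tumors, and the difference of -0.81 had an exact permutation p = 0.114 (0.686 after Benjamini-Hochberg adjustment over 6 ratios). The log2 ratio of Kdr to Flt1 in the sgScramble tumors was -1.56, -0.70 and -1.27, beside -0.34, -1.35, 0.15 and -0.71 for icOVA. The icOVA tumor 18 was the only tumor with more CPM of Kdr than of Flt1, and the difference of 0.62 had an exact permutation p = 0.286 (0.8 adjusted). The ratio of Tek to Tie1 differed by 0.21 (exact permutation p = 0.4, 0.8 adjusted) and that of Angpt2 to Angpt1, the ligands of TIE2, by -0.23 (exact permutation p = 0.629, 0.943 adjusted).

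**Figure D4:**
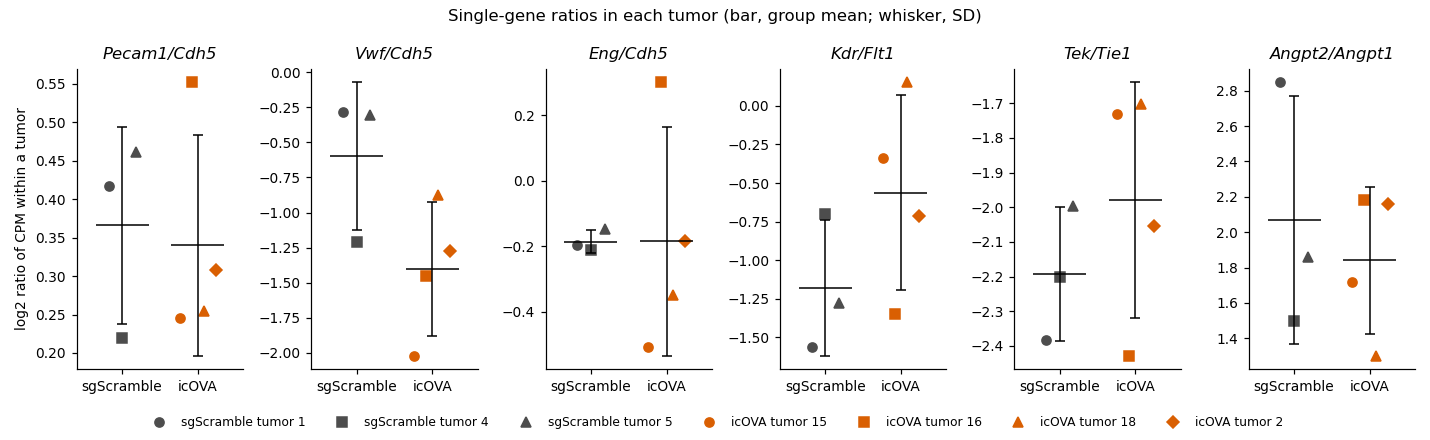
Log2 ratio of CPM of 2 genes within each tumor (vertical axes, which differ in range) for 3 sgScramble tumors (grey) and 4 icOVA tumors (orange), with the group mean as a bar and the SD as whiskers. In each of the 6 panels the groups overlap, most nearly parting for Vwf/Cdh5, where sgScramble tumor 4 and icOVA tumor 18 cross.

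Ligands and regulators of these receptors were counted by lists. Counts at an unadjusted p below 0.05, here and for the lists below, take both directions together, in which 4763 of all 17489 tested genes passed. EdgeR called 588 of all tested genes higher and 444 lower, DESeq2 1558 and 1278, and limma-voom 518 and 423. Of 8 VEGF ligands and further receptors, 0 were called by edgeR or limma-voom (2 at an unadjusted p below 0.05, and 2 higher by DESeq2), and the median log2 fold change was 0.05. Vegfa, the ligand of VEGFR1 and VEGFR2, had 312, 191 and 237 CPM in the sgScramble tumors and 161, 244, 99.8 and 225 CPM in the icOVA tumors. The icOVA tumor 18, with the highest Kdr, had the lowest Vegfa, and the log2 fold change of Vegfa was -0.44 (SE 0.30, edgeR adjusted p = 0.387). For Nrp2, a coreceptor for VEGF, the log2 fold change was 0.49 (SE 0.13, edgeR adjusted p = 0.0613). Those of Nrp1 and Pgf were 0.02 and 0.08 (edgeR adjusted p = 0.969 and 0.945). Of 5 angiopoietin and TIE regulators, 0 were called by any of the 3 tools (2 at an unadjusted p below 0.05), all 5 values were above 0, and Angpt2 and Ptprb, a phosphatase that acts on TIE2, had log2 fold changes of 0.42 and 0.46.

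Of 15 junction and surface genes, 0 were called by edgeR or limma-voom (10 at an unadjusted p below 0.05, and 8 by DESeq2), 14 had log2 fold changes above 0, and the median was 0.66. Cd34 and Plvap, which forms the diaphragms of fenestrated capillaries, had log2 fold changes of 1.34 (SE 0.45) and 0.74 (SE 0.25), while that of Podxl, which epithelial cells also make, was -0.08 (SE 0.19). The part of other cells in the RNA of Cd34, Plvap and Podxl was not tested. Of 13 transcription factors of the endothelium, 1 was called higher by edgeR and limma-voom, Ets1 (7 at an unadjusted p below 0.05, and 5 higher by DESeq2), 12 had log2 fold changes above 0, and the median was 0.89. Ets1 was at 112 ± 5.15 CPM (SD, n = 3) in the sgScramble group, against 150 ± 12.3 CPM (SD, n = 4) with icOVA, all 4 above the 3, and rose by 0.42 on the log2 scale (SE 0.08, edgeR adjusted p = 0.0347), and lymphocytes are known to make it as well. For Epas1, the HIF2 alpha gene, the log2 fold change was 1.02 (SE 0.31, edgeR adjusted p = 0.0886). The mean of the junction genes and that of the transcription factors had r = 0.997 and 0.998 with the mean of the 10 genes over the 7 tumors. The value was 0.990 for the arterial, venous and tip cell list, 0.935 for the angiopoietin list, 0.746 for the lymphatic list, 0.722 for the leukocyte adhesion list, 0.021 for the partners of endoglin and -0.253 for the VEGF list.

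Of 12 arterial, venous and tip cell genes, edgeR and limma-voom called 0 higher and 1 lower, Ephb4 (4 at an unadjusted p below 0.05, and 3 higher and 1 lower by DESeq2), and 9 had log2 fold changes above 0. Ephb4 encodes the EphB4 receptor of veins, which epithelial cells also make. Ephb4 was at 109 ± 12.49 CPM (SD, n = 3) in the sgScramble group, against 68.4 ± 8.53 CPM (SD, n = 4) with icOVA, without overlap, and fell by 0.67 on the log2 scale (SE 0.12, edgeR adjusted p = 0.0280). Aplnr, the apelin receptor, had a log2 fold change of 1.11 (SE 0.44, edgeR adjusted p = 0.158). Efnb2 and Nr2f2, also among the most abundant genes of this list, had log2 fold changes of -0.04 and 0.03 (edgeR adjusted p = 0.834 and 0.865). The median of the list was 0.36. Of 6 tested BMP and ALK1 partners of endoglin, 0 were called by edgeR or limma-voom (2 at an unadjusted p below 0.05, and 1 higher and 1 lower by DESeq2), and the median log2 fold change was -0.18. Acvrl1, the ALK1 receptor that works with endoglin, had the highest log2 fold change of the 6, 0.59 (SE 0.19, edgeR adjusted p = 0.100). Only 2 of the 6 were above 0, and those of Bmpr2, Id1 and Smad7 were -0.15, -0.21 and -0.24. The lowest was that of Smad6, -0.67 (SE 0.16, edgeR adjusted p = 0.0538). Of 7 lymphatic genes, 0 were called by edgeR or limma-voom (1 at an unadjusted p below 0.05, and 1 by DESeq2). Pdpn had a log2 fold change of 0.78 (SE 0.22), and Ccl21a, which was between 0.345 and 22.0 CPM, one of 0.79 with an SE of 1.48. Lyve1 had means of 1.42 CPM in sgScramble and 2.17 CPM in icOVA tumors. Prox1 and Mmrn1 were lower still, at means of 0.25 and 0.44 CPM in sgScramble and 1.03 and 1.69 CPM in icOVA tumors. Both were highest in icOVA tumor 18, at 3.19 and 5.38 CPM. Which cells made the Pdpn RNA was not tested.

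Of 4 tested leukocyte adhesion genes, edgeR and limma-voom called 1 higher, Selp, and DESeq2 called 2, Selp and Sele. P-selectin, the product of Selp, lets leukocytes roll on activated endothelium and is also stored in platelets. Selp had 4.29, 7.90 and 5.28 CPM in the sgScramble tumors and 13.8, 14.96, 24.1 and 19.1 CPM in the icOVA tumors. All 4 icOVA tumors were above the 3 sgScramble tumors, icOVA tumor 16 included, unlike for 9 of the 10 endothelial genes. The same held for Nrp2, Ptprb and Acvrl1 of the lists above and for 11.3% of all tested genes. Selp rose by 1.63 on the log2 scale (SE 0.27, edgeR adjusted p = 0.0271). The groups did not overlap for Sele, the E-selectin gene, either, at 1.32, 2.19 and 1.44 CPM in sgScramble tumors and 3.89, 2.46, 5.98 and 3.17 CPM with icOVA. For Sele the log2 fold change was 1.23 (SE 0.35, adjusted p = 0.0751, and 0.0109 by DESeq2), that of Icam1 0.19 (adjusted p = 0.447) and that of Vcam1 -0.33 (adjusted p = 0.401, edgeR). The calls of Selp, Ets1 and Ephb4 were lost without sgScramble tumor 1, sgScramble tumor 5, icOVA tumor 15 or icOVA tumor 2 (adjusted p from 0.0676 to 0.161, edgeR), fits in which edgeR called 0 to 6 genes of the table higher, and that of Ets1 also without sgScramble tumor 4 (0.0507).

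Over the 7 tumors the mean of a list of another cell type had a Pearson's r with the mean of the endothelial genes of 0.910 for fibroblast, 0.904 for platelet, 0.892 for pericyte, 0.856 for leukocyte, 0.508 for adipocyte, 0.134 for skeletal muscle and -0.641 for epithelial cancer cell genes. Each gene has the same weight in such a mean, also genes near the floor. In the platelet list these include Gp1ba and Ppbp, at means of 0.17 and 0.55 CPM in sgScramble tumors. None of the lists was at 0 in all tumors for any of its genes in the table. Of 7 fibroblast genes, 0 were called by edgeR, DESeq2 or limma-voom, and 0 had an unadjusted p below 0.05, but all 7 had log2 fold changes above 0 with a median of 0.93. Their summed level was 6722 to 15780 CPM in sgScramble tumors and 5649 to 36822 CPM in icOVA tumors. Col1a1, the collagen gene, had 2181, 5359 and 2025 CPM in the sgScramble tumors and 7798, 1865, 11678 and 2798 CPM in the icOVA tumors. As with Cdh5, icOVA tumor 16 was low and icOVA tumors 15 and 18 were high. The mean log2 CPM of the 10 endothelial genes minus that of the fibroblast genes was -3.85 in the sgScramble and -3.89 in the icOVA group. Single tumors differed more than these means. The sgScramble tumors stood at -3.71, -4.24 and -3.61, and the icOVA tumors at -4.47, -3.37, -4.39 and -3.33.

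Of 10 pericyte and mural genes, 0 were called by edgeR or limma-voom (2 at an unadjusted p below 0.05, and 1 by DESeq2), with summed levels of 380 to 649 and 453 to 908 CPM. The log2 fold changes within this list were for Rgs5 1.17 (SE 0.41), for Pdgfrb 0.36 (adjusted p = 0.475) and for Acta2 -0.39 (SE 0.25, edgeR adjusted p = 0.349). Of 7 leukocyte and myeloid genes, 4 were called higher, Ptprc, Cd68, Itgam and Lyz2, with log2 fold changes of 1.08, 0.82, 0.83 and 0.91 (adjusted p from 0.0271 to 0.0360, edgeR), and these calls were lost in the same 4 fits as that of Selp (0.0619 to 0.168). Their summed level was 1620 to 2298 CPM in sgScramble tumors and 3217 to 4182 CPM in icOVA tumors, without overlap. The mean of the 10 endothelial genes minus that of the leukocyte genes was -2.09 in sgScramble and -2.11 in icOVA tumors. By tumor it was -1.93, -2.10 and -2.24 in the sgScramble group and -2.14, -2.62, -1.75 and -1.95 in the icOVA group. The same difference from the pericyte genes was 0.28 in sgScramble and 0.48 in icOVA tumors. From the epithelial cancer cell genes it was -3.77 in sgScramble and -3.01 in icOVA tumors. There the sgScramble tumors ran from -4.11 to -3.24, icOVA tumor 18 stood at -1.68, and the other icOVA tumors ran from -3.965 to -3.155. The part of leukocyte, fibroblast and pericyte RNA in the endothelial values was not tested.

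Of 6 tested platelet genes, 0 were called by edgeR or limma-voom (1 at an unadjusted p below 0.05, and 1 by DESeq2), with summed levels of 60.8 to 70.1 and 71.4 to 91.5 CPM. Itgb3 made up most of this sum, at 45.0 to 68.2 CPM a tumor. Ppbp had a mean of only 0.55 CPM in sgScramble and 1.83 CPM in icOVA tumors. The log2 fold changes of Ppbp and Pf4 were 1.74 (SE 0.41, adjusted p = 0.0514) and 0.48 (adjusted p = 0.409, edgeR), and the part of platelets in Pecam1, Vwf and Selp was not tested. Of 5 epithelial cancer cell genes, 0 were called by any of the 3 tools and 0 had an unadjusted p below 0.05. They were at 4151 to 4379 and 2694 to 4626 CPM, and Cdh1, the E-cadherin gene, had its lowest value in icOVA tumor 18, 364 CPM against 753 to 1099 in the other tumors. Of 8 hypoxia response genes, 0 were called by any of the 3 tools and 0 had an unadjusted p below 0.05, the median log2 fold change was -0.06, and their mean had r = -0.739 with that of the endothelial genes. Skeletal muscle genes, which can mark tissue below the skin, were at 2.56 to 66.9 and 1.90 to 128 CPM, and of 5 muscle and 4 tested adipocyte genes edgeR called 0 (0 and 1 at an unadjusted p below 0.05, and 0 and 1 by DESeq2).

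**Figure D5:**
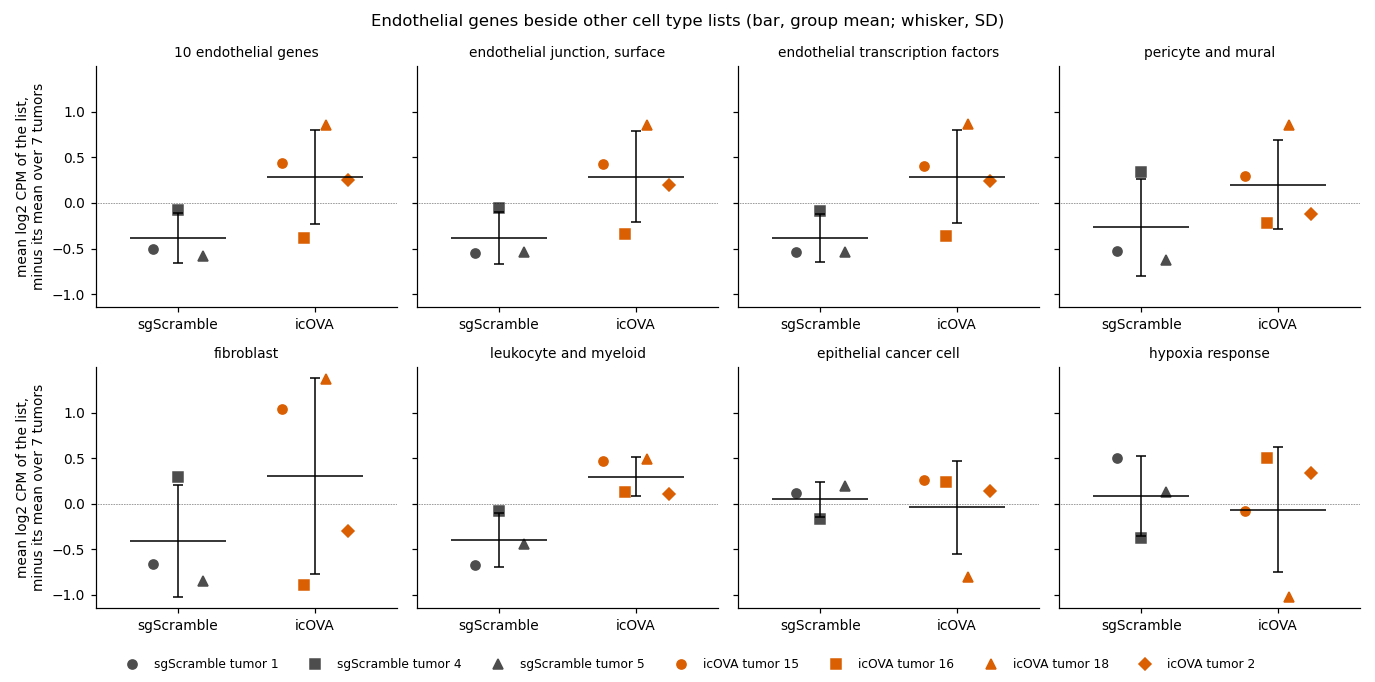
Mean log2 CPM of the genes of a list minus its mean over the 7 tumors (vertical axes) in 3 sgScramble tumors (grey) and 4 icOVA tumors (orange), with the group mean as a bar and the SD as whiskers, for the 10 endothelial genes and 7 other lists. The endothelial, pericyte and fibroblast panels have icOVA tumor 18 high and icOVA tumor 16 low, the leukocyte panel has no overlap between groups, and in the epithelial and hypoxia panels icOVA tumor 18 is the lowest tumor.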

How the data were processed

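RNA of 7 s/c tumors was sequenced as single reads from TruSeq libraries (polyA RNA per the labels, a total RNA kit in the methods). The values the authors deposited are whole-number counts of reads for each gene, not normalized. The submitters' processing notes name mm10, and the aligner, counting tool and annotation are not given in the sources used here. GENCODE M21 symbols matched 22414 of 22629 rows. No 2 tumors of a group agreed within sampling noise. EdgeR 4.0.16 (R 4.3.3) tested genes kept by filterByExpr (minimum count 10, total 15) after TMM scaling, without covariates, and p values were adjusted over 17489 genes (Benjamini-Hochberg, threshold 0.05). SE is the size of the log2 fold change over the square root of F. Log2 CPM had a prior count of 2. Alternatives were DESeq2 1.42.0, limma-voom 3.58.1, other scalings and filters, robust dispersion, a prior count of 0.5 and each tumor left out. Scipy 1.17.1 gave permutation tests. Members and lists were chosen with earlier results of these data known. Named are the 10 members, the called genes and some of the most abundant genes of each list, a few further genes of the lists, and the 6 genes most like the members. Tumors of Krt19-edited cells, Gdf2 and Bmp10 were not analysed here.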

Additional observations from a re-analysis of the deposited data

How the results depend on the processing

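The log2 fold changes of the 10 endothelial genes kept their sign and side of the threshold in 64 of 70 refits that used all tumors and passed the threshold in the other 6, all of them by DESeq2. With each tumor left out, 62 of 70 were the same, 7 passed and 1 turned, Vwf, which ran from -0.33 to 0.44. The median of the 10 stayed between 0.61 and 1.02. DESeq2 called 1558 genes higher and 1278 lower, against 588 and 444, and 6 endothelial genes against 0. Leaving out each tumor gave 0 to 1014 genes higher, 0 to 716 lower and 0 to 6 endothelial genes. With sgScramble tumor 1 or 5 or icOVA tumor 15 left out, edgeR called 0 genes (2936 to 3415 at an unadjusted p below 0.05), and without icOVA tumor 2 it called 6 higher and 2 lower. Refits were counted for most of the other named genes. With all tumors, 222 refits were the same and 16 passed. With a tumor left out, 192 were the same, 14 passed, 29 no longer passed and 3 turned. Those that turned were Podxl (-0.23 to 0.054) and Ccl21a (-1.05 to 4.32). The group difference in the log2 ratio ran from -0.099 to 0.022 for Pecam1/Cdh5, from -0.16 to 0.11 for Eng/Cdh5 and from -0.52 to 0.16 for Angpt2/Angpt1 with a tumor left out, and no sign changed with a prior count of 0.5. No paired analysis was possible because tumor numbers differ between sgScramble and icOVA. The cause of these shifts was not tested.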
